A study of Mus musculus with 6 samples.

Results

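The Bcl2 family decides in many cells whether the outer membrane of mitochondria stays closed or is opened. Its 10 members described here, Bcl2, Bcl2l1, Mcl1, Bax, Bak1, Bok, Bid, Bad, Bbc3 and Bcl2l11, were taken by gene symbol from the 24411 genes of a count table of a fast muscle of the mouse hindlimb, the extensor digitorum longus (EDL). The table held RNA sequencing counts of 3 mAktDKO mice (mAktKO in the labels, genotype Mlc1f-Cre:Akt1/2-floxed) and 3 control mice (flox, genotype Akt1/2-floxed), all C57BL/6J and 50 weeks old. Both groups carried the floxed Akt1 and Akt2 alleles, and in the mAktDKO mice a Cre recombinase knocked in at the myosin light chain Mlc1f locus deleted them in skeletal muscle fibres. Cells of the muscle other than fibres were not targeted, and the RNA came from the whole muscle, so fewer cells of a type and less RNA per cell cannot be told apart.

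Anti-apoptotic members (Bcl2, Bcl2l1, which encodes Bcl-xL, and Mcl1) hold the pore-forming members (Bax, Bak1 and the less studied Bok) in check. BH3-only members (Bid, Bad, Bbc3, also called Puma, and Bcl2l11, also called Bim) sense stress and either block the anti-apoptotic members or activate the pore-forming ones. Open pores release cytochrome c, which activates caspases. Akt acts on this family in textbook accounts by phosphorylating Bad, which the Ywha adaptor proteins then hold in the cytosol, and by excluding FoxO factors from the nucleus, which otherwise transcribe Bcl2l11 and Bbc3. Counts of RNA show the levels of transcripts, and neither the phosphorylation of a protein nor the place of FoxO factors in the cell.

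Total counts were between 13738795 and 15445523 per mouse, and a floor of 3 counts corresponded to between 0.180 and 0.227 CPM (counts relative to the library total, scaled by the TMM method), for counting error only. Akt2 was at 51.0 ± 1.82 CPM (SD, n = 3) across the mAktDKO group and 149 ± 20.3 CPM (SD, n = 3) among flox mice, and Akt1, counted over the whole gene, at 55.7 ± 3.89 and 66.2 ± 0.56 CPM. The log2 fold changes were -1.55 for Akt2 (adjusted p = 0.000923) and -0.25 for Akt1 (adjusted p = 0.115, both by the quasi-likelihood test of edgeR). Residual ribosomal RNA (Rn45s) took 2.92% to 3.47% of the counts in the mAktDKO mice and 4.22% to 4.73% in the flox mice. All 8 fast myofibre markers were detected, and their summed level was 104830 to 115280 CPM across the mAktDKO group and 117590 to 127750 CPM in the flox mice. The summed level of 7 leukocyte and macrophage markers was 49.6 to 59.98 CPM across the mAktDKO group and 32.6 to 47.8 CPM in the flox mice, with the T cell gene Cd3e at 0 or 1 count and the B cell gene Cd79a at 0 to 2 counts in every mouse. Markers of fibro-adipogenic progenitors summed to 15319 to 19758 and 6382 to 15600 CPM, those of endothelial cells to 476 to 561 and 401 to 523 CPM, and those of adipocytes to 19.7 to 66.5 and 13.8 to 33.1 CPM. The part of these shifts in the results below was not tested.

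No member of the family differed between the genotypes past the threshold. With edgeR's quasi-likelihood test, 0 of the 9 members that passed the filter on low counts had an adjusted p under 0.01 or under 0.05, where 0.0233% and 1.18% of the 12892 tested genes did. At an unadjusted p under 0.05 there was 1 member, Bcl2l11, where 24.5% of the tested genes passed. DESeq2 called 0 members at either threshold, where it called 3.46% (0.92% higher in the mAktDKO mice) and 8.03% of all genes to which it gave an adjusted p. It gave 7 members an adjusted p and had 1 member, Bcl2l1, at an unadjusted p under 0.05. The groups did not overlap for 3 members, Bcl2l11 and Bbc3 above and Bax below the flox mice, where 31.1% of the tested genes had groups that did not overlap. With these shares among all genes, the counts do not set the family apart. Estimates lay above 0 for 4 of the 9 tested members and below 0 for 5, with 52.5% of all tested genes above 0.

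**Figure D1:**
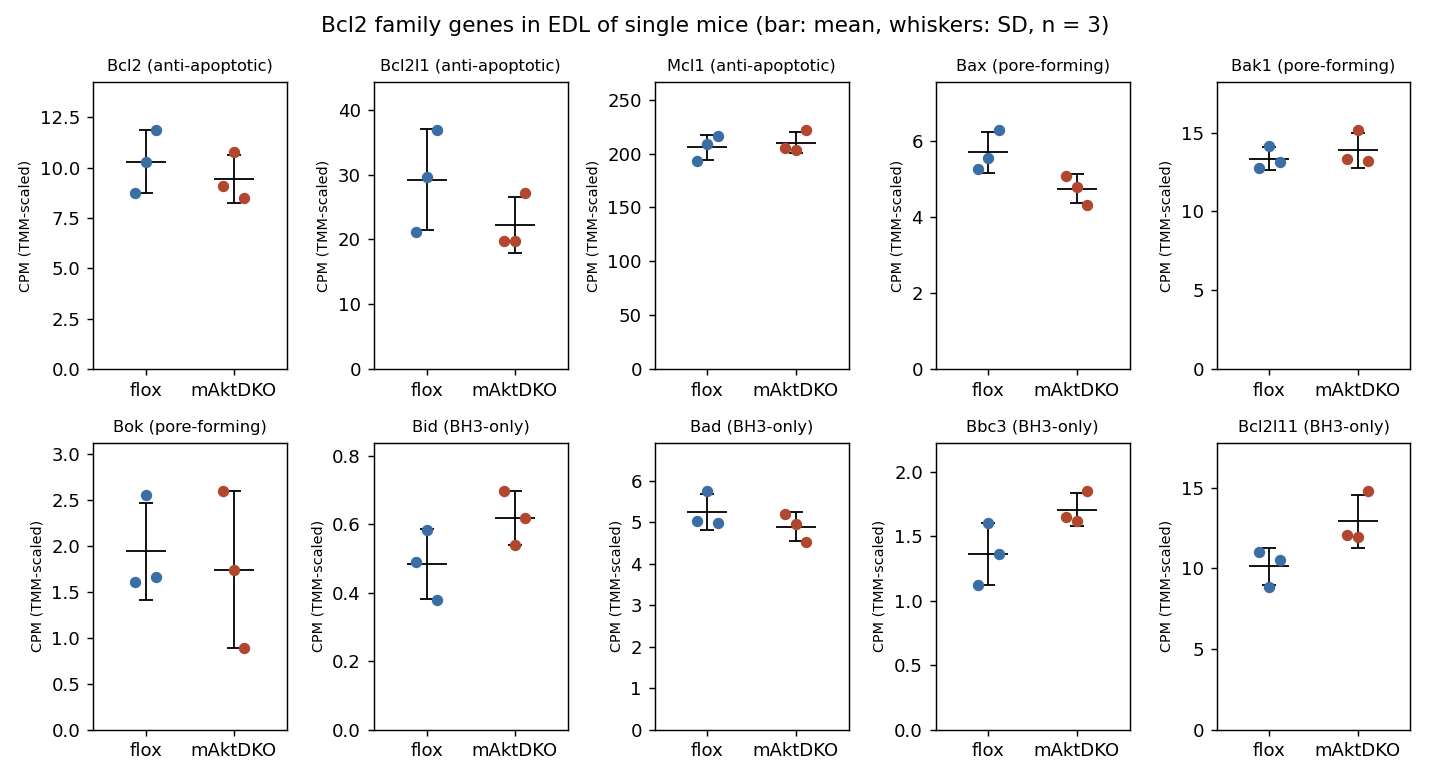
Level of each of the 10 members (CPM on the y axis, from 0) in the 3 flox and 3 mAktDKO mice, with the mean and SD (n = 3). The 3 mAktDKO mice lie above all flox mice for Bcl2l11 and, narrowly, for Bbc3, and below them for Bax, and the groups overlap for the other 7 genes.

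Bcl2l11 (ENSMUSG00000027381.16, mm10 chromosome 2 from 128126038 to 128162547, plus strand) had the smallest p of the members in edgeR, while Bcl2l1 had it in DESeq2. It had 12.05, 11.9 and 14.8 CPM in mAktDKO mice 1 to 3 and 11.05, 8.83 and 10.5 CPM in the flox mice, numbered 2 to 4 in the table. Every mAktDKO mouse lay above every flox mouse, and mAktDKO mouse 3 was the highest. The means were 12.9 ± 1.63 and 10.1 ± 1.16 CPM (SD, n = 3), for an estimated log2 fold change of 0.35 (standard error, SE, 0.14, 95% interval 0.042 to 0.66, adjusted p = 0.163, quasi-likelihood test of edgeR). The interval is not adjusted for the number of genes tested. The estimate was 0.23 without mAktDKO mouse 3 (adjusted p = 0.373, edgeR) and 0.26 without flox mouse 3 (adjusted p = 0.311, edgeR), and in both fits the unadjusted p was above 0.05. Leukocytes also express this gene, and the leukocyte marker sum, given above, did not overlap between the groups either. Its part in the difference was not tested.

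Bbc3 (ENSMUSG00000002083.13, chromosome 7 from 16308393 to 16318205, plus strand) was among the members with the fewest reads, at 26, 27 and 27 counts in the mAktDKO mice and 16, 22 and 18 counts in the flox mice. On the CPM scale these were 1.65, 1.62 and 1.85 against 1.12, 1.605 and 1.36 CPM. The lowest mAktDKO mouse was thus close to the highest flox mouse, and the groups overlapped with DESeq2 size factors and with upper-quartile scaling. The log2 fold change was 0.32 (SE 0.26, 95% interval -0.27 to 0.91, adjusted p = 0.464, edgeR), an interval that holds both decreases and increases.

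Bcl2l11 and Bbc3 are known targets of FoxO factors, which Akt restrains, and the 250 bases before their annotated starts were therefore searched on both strands for the FoxO core GTAAACA. RefSeq windows (GRCm38.p6, the mm10 build) matched all 10 members with 16 windows. The core was in 2 of the 16, 1 window of Bcl2l11 and 1 of Bbc3, and in 3.17% of 32851 windows of all genes. The 2 windows are shown 5′ to 3′ on the plus strand with the core in capitals, at chr2:128125788-128126037 for Bcl2l11 and chr7:16310011-16310260 for Bbc3.
Bcl2l11: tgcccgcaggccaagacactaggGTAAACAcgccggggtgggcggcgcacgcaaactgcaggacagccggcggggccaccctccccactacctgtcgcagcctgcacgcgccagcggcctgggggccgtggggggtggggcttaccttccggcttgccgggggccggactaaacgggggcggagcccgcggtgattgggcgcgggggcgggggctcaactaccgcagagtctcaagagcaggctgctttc
Bbc3: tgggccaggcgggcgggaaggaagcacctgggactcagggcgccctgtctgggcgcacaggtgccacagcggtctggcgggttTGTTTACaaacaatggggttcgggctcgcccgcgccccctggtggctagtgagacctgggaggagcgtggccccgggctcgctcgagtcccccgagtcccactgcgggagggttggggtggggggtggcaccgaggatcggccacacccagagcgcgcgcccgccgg
The core lay at positions -227 to -221 from the start in Bcl2l11, on the plus strand, and at -167 to -161 from a start inside the span of Bbc3, where the capitals show its reverse complement. The match is a description of the letters and not of binding. Of 2 further motifs searched, the E-box CACGTG was in the Bax window and in another Bbc3 window, where 6.02% of all windows held it, and the cAMP response element TGACGTCA was in 0 of the 16, where 1.55% of all windows held it. None of the printed bases lies in an exon of its gene in GENCODE M21.

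Of the remaining BH3-only genes, Bad did not pass the test and Bid was too low to be tested. Bad (ENSMUSG00000024959.14, chromosome 19 from 6941861 to 6951899), whose protein is a substrate of Akt, was at 5.20, 4.97 and 4.53 CPM across the mAktDKO group and 5.03, 5.76 and 4.99 CPM in the flox mice. The groups overlapped, and the log2 fold change was -0.10 (95% interval -0.44 to 0.24, adjusted p = 0.701, edgeR). Bid (ENSMUSG00000004446.12, chromosome 6 from 120891930 to 120916853), which links death receptors to mitochondria once caspase 8 has cut it, had 11, 9 and 9 counts in the mAktDKO mice and 7, 8 and 5 counts in the flox mice. It did not pass the filter on low counts. Without the filter its log2 fold change was 0.34 (adjusted p = 0.707, edgeR), a difference that was not detectable at this depth. Its groups overlapped under TMM and did not overlap with library totals, where the mAktDKO mice were higher.

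None of the pore-forming members passed the test. Bax (ENSMUSG00000003873.11, chromosome 7 from 45461697 to 45466898) had 5.07, 4.79 and 4.32 CPM across the mAktDKO group and 5.24, 5.54 and 6.28 CPM in the flox mice. Every mAktDKO mouse lay below every flox mouse by a narrow margin, and scaling by library totals made the groups overlap. The means were 4.73 ± 0.38 and 5.69 ± 0.53 CPM (SD, n = 3), with a log2 fold change of -0.26 (SE 0.15, 95% interval -0.61 to 0.081, adjusted p = 0.308, edgeR). Bak1 (ENSMUSG00000057789.14, chromosome 17 from 27019810 to 27029009), which serves the same step as Bax, had 13.3, 15.2 and 13.2 CPM against 12.7, 14.2 and 13.2 CPM. Its groups overlapped, with a log2 fold change of 0.058 (95% interval -0.18 to 0.30, adjusted p = 0.768, edgeR). Bok (ENSMUSG00000026278.14, chromosome 1 from 93685660 to 93695764) was the most variable member, at 2.5997, 1.74 and 0.89 CPM across the mAktDKO group and 1.61, 2.55 and 1.66 CPM in the flox mice. Its estimate of -0.15 had a 95% interval from -1.02 to 0.72 (adjusted p = 0.839, edgeR), so a change of either direction could not be seen.

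Among the anti-apoptotic members, Bcl2l1 (ENSMUSG00000007659.18, chromosome 2 from 152780668 to 152831728) had the lowest estimate. It was at 19.8, 19.7 and 27.2 CPM across the mAktDKO group and 21.2, 29.7 and 36.9 CPM in the flox mice. The groups overlapped, mAktDKO mouse 3 lay above flox mouse 2, and the flox mice themselves were spread widely. The means were 22.2 ± 4.28 and 29.3 ± 7.86 CPM (SD, n = 3), for an estimated log2 fold change of -0.40 (SE 0.20, 95% interval -0.85 to 0.058, adjusted p = 0.253, edgeR). The estimate was -0.20 without flox mouse 4 and -0.59 without flox mouse 2, which had the highest and the lowest level of the group, and -0.58 without mAktDKO mouse 3. Bcl2 (ENSMUSG00000057329.7, chromosome 1 from 106538178 to 106714274), the founding member, was at 9.07, 10.8 and 8.50 CPM against 8.74, 10.3 and 11.9 CPM, with a log2 fold change of -0.12 (95% interval -0.46 to 0.22, adjusted p = 0.645, edgeR). Mcl1 (ENSMUSG00000038612.16, chromosome 3 from 95658788 to 95663176), which encodes a short-lived protein, had the deepest counts and the narrowest interval. It was at 205, 204 and 222 CPM across the mAktDKO group and 193, 209 and 216 CPM in the flox mice, a log2 fold change of 0.029 (95% interval -0.16 to 0.21, adjusted p = 0.849, edgeR).

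**Figure D2:**
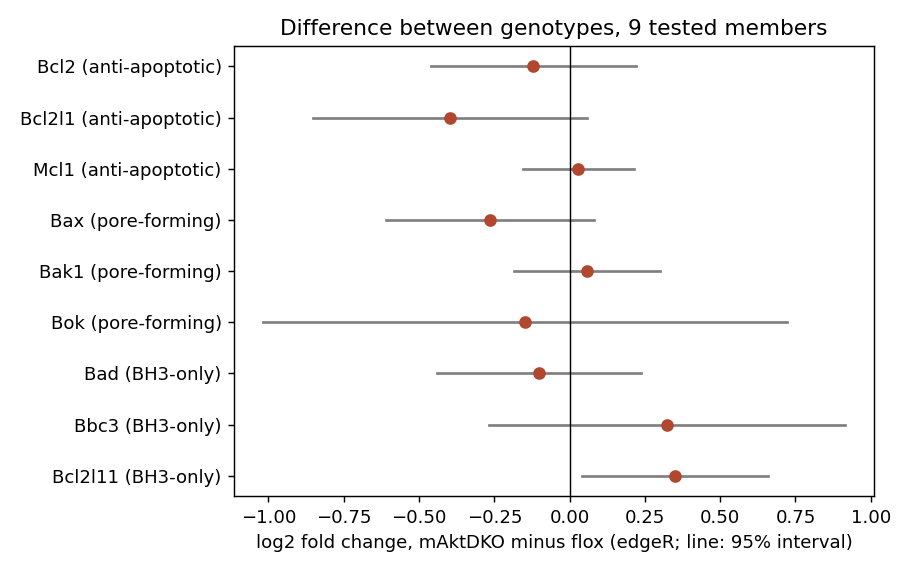
Log2 fold change (mAktDKO minus flox, x axis) of the 9 tested members as points, with the 95% interval of edgeR's fit as lines. Only the interval of Bcl2l11 (0.042 to 0.66) lies clear of 0, before adjustment for the number of genes, and that of Bok is the widest.

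Whether the 2 strands were kept apart in the counting is not given in the sources used here. Bcl2 overlaps the antisense gene D630008O14Rik, Bak1 overlaps Ggnbp1, Bad overlaps Gpr137 and Bid overlaps Bcl2l13, all on the opposite strand in GENCODE M21, and reads in the shared stretches could be counted for either gene. Bax overlaps another model, Gm45808, on the same strand over part of its span.

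Levels of different genes were compared per kilobase of transcript. Mcl1 was far above the rest in the flox mice, at 60.3 ± 3.39 CPM per kb of its principal transcript (SD, n = 3), followed by Bcl2l1 at 11.4 ± 3.06. Bax at 6.56 ± 0.61 and Bak1 at 5.59 ± 0.31 came next and changed places when the merged exons of each gene gave the length (3.61 and 5.54 CPM per kb), so their order is not settled. Bad was at 3.62 ± 0.30 and Bcl2l11 at 2.01 ± 0.23 CPM per kb. Bcl2 at 1.43 ± 0.22 and Bok at 1.32 ± 0.36 did not differ beyond their spread, and Bbc3 at 0.75 ± 0.13 and Bid at 0.22 ± 0.047 were the lowest. Per kb of the principal transcript, the order of the means in the mAktDKO mice was the same except that Bak1 (5.81 ± 0.46) lay above Bax (5.45 ± 0.44), within their spread. With merged exons Bak1 (5.77 ± 0.46) lay above Bcl2l1 (4.84 ± 0.93) in these mice, so the second place of Bcl2l1 is not settled either. Among the 3 anti-apoptotic members described here, the RNA in this muscle was thus mostly Mcl1 in both genotypes. Mcl1 was at 61.5 ± 2.94 CPM per kb in the mAktDKO mice, with Bcl2 at 1.31 ± 0.17. The anti-apoptotic relative Bcl2l2 was not compared per kilobase.

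**Figure D3:**
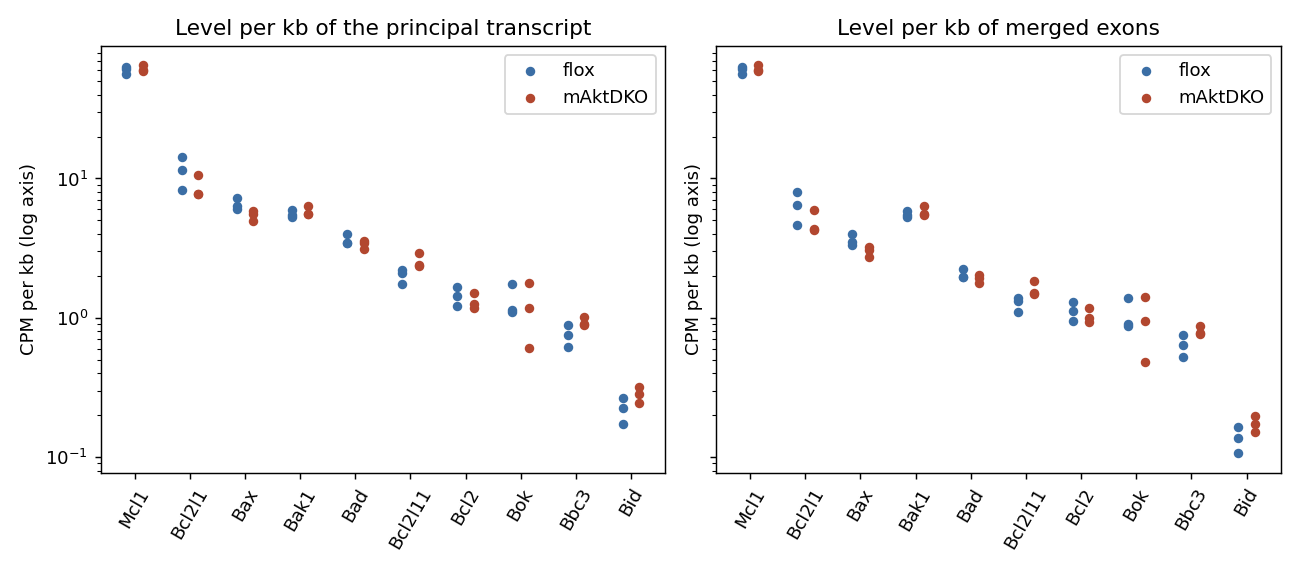
Level of each member in single mice (CPM per kilobase, log axis), with the length taken from the principal transcript on the left and from the merged exons on the right. Mcl1 stands near 60 and Bid below 1 in both panels, and the order of the genes between them depends in part on the length used.

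Ratios of members within a mouse do not depend on the scaling between libraries, and 5 were taken as a description, with no test. The Bax/Bcl2 ratio, often read as a sign of readiness for apoptosis, was -0.99 ± 0.17 in the mAktDKO mice and -0.85 ± 0.098 in the flox mice (log2 of the counts, SD, n = 3), and the groups overlapped. The groups also overlapped for Bax/Bcl2l1 (-2.22 ± 0.38 and -2.33 ± 0.28), Bcl2l11/Bcl2 (0.45 ± 0.33 and -0.02 ± 0.31) and Bcl2/Bcl2l1 (-1.22 ± 0.41 and -1.48 ± 0.18). Bcl2l11/Mcl1 was -4.09, -4.09 and -3.91 in the mAktDKO mice and -4.13, -4.57 and -4.36 in the flox mice. This was the only ratio whose groups did not overlap, with flox mouse 2 close to mAktDKO mice 1 and 2, and its mean differed by 0.32 on the log2 scale. Bcl2l11 alone, whose groups did not overlap either, had a log2 fold change of 0.35, and Mcl1 had 0.029 (edgeR). The ratio thus largely repeats the difference in Bcl2l11. The share of other gene pairs without overlap was not computed.

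**Figure D4:**
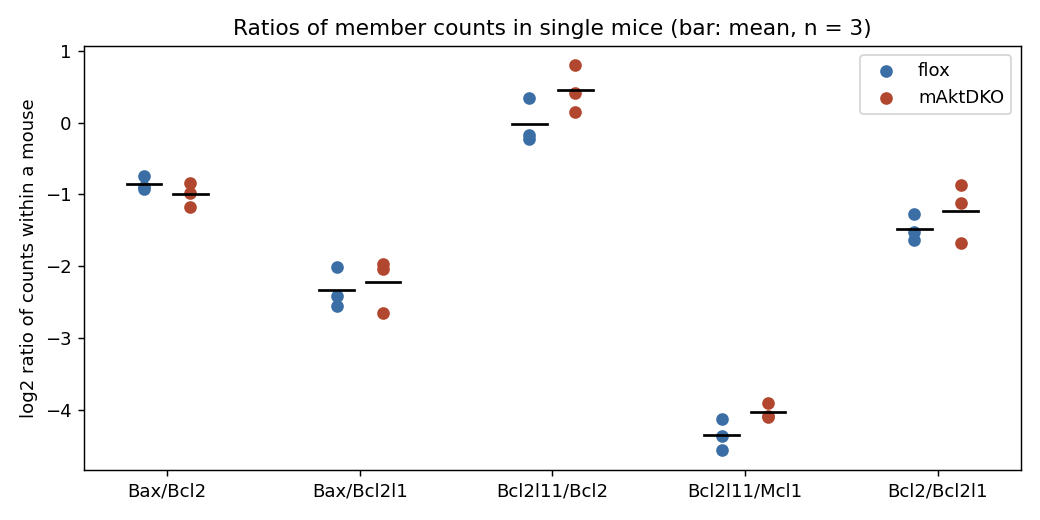
Log2 ratio of the counts of member pairs in single mice (y axis), with the mean of 3 mice as a bar. The Bax/Bcl2 ratios of the genotypes overlap, and those of Bcl2l11/Mcl1 do not (means -4.03 in mAktDKO and -4.35 in flox).

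Beyond the 10 members, 77 genes in 9 lists of the same pathway were read from the same fit. Of these, 65 passed the filter, with 33 estimates above 0 and 32 below 0 and a median log2 fold change of 0.014, against 0.017 over all tested genes. With edgeR 0 of them were called at an adjusted p under 0.01 and 1, Endog, at 0.05. Of all tested genes, 0.0233% and 1.18% were called at these thresholds. Without adjustment 7 higher and 11 lower genes had a p under 0.05, where 11.4% and 13.1% of all tested genes did. DESeq2 called 3 at an adjusted p under 0.01, Slc25a4, Vdac1 and Endog, where it called 3.46% of the 9781 genes to which it gave an adjusted p. At 0.05 it also called Vdac3 (adjusted p = 0.0126, DESeq2) and Aifm1 (adjusted p = 0.0322, DESeq2), where it called 8.03% of those genes.

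Of the 10 mitochondrial membrane partners, 8 lay below 0, with a median log2 fold change of -0.20 that shrank to -0.067 with library totals. Groups did not overlap for 6 of the 10 with the mAktDKO mice lower, where 16.6% of all tested genes did so. For 1 they did not overlap with the mAktDKO mice higher, where 14.6% did so. At an unadjusted p under 0.05 (edgeR) there were 4 lower genes and 1 higher gene, where 13.1% and 11.4% of all tested genes passed. Vdac1, the main channel of the outer membrane, was at 899 ± 71.4 CPM across the mAktDKO group and 1191 ± 59.7 CPM in the flox mice (SD, n = 3), for an estimated log2 fold change of -0.40 (adjusted p = 0.0623, edgeR). Slc25a4, the ADP/ATP carrier of muscle, was at -0.47 (adjusted p = 0.0691, edgeR) and Vdac3 at -0.36 (adjusted p = 0.0761, edgeR). Of the 7 nucleases and other executioners, 6 lay below 0, with a median of -0.31 that shrank to -0.14 without flox mouse 2 and to -0.17 with library totals. Most genes of this list act outside mitochondria. Endog, a nuclease of the intermembrane space that also serves mitochondrial DNA, was lower in the mAktDKO mice, at 22.2, 17.0 and 19.5 CPM against 32.4, 29.1 and 28.05 CPM, a log2 fold change of -0.61 (SE 0.12, adjusted p = 0.0482, quasi-likelihood test of edgeR). Its adjusted p lies between the thresholds of 0.01 and 0.05. Aifm1, the apoptosis-inducing factor that the respiratory chain also needs, was at -0.39 (adjusted p = 0.0653, edgeR) and Dffa, which holds a nuclease inactive, at -0.31 (adjusted p = 0.248, edgeR).

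Caspases and death receptors lay mostly above 0, and none passed the threshold. All 10 tested genes of the apoptosome and caspase list had an estimate above 0, with a median of 0.31, and the median stayed above 0 under the other scalings. Casp12, a caspase of the endoplasmic reticulum, was at 0.48 (adjusted p = 0.188), Apaf1, the scaffold of the apoptosome, at 0.33 (adjusted p = 0.222) and Casp8, the caspase of death receptors, at 0.41 (adjusted p = 0.265, all from edgeR). Groups did not overlap for 1 of the 10, where 14.6% of all tested genes had groups that did not overlap with the mAktDKO mice higher. Of 11 tested genes of death receptors and necroptosis, 10 lay above 0, with a median of 0.20 that was 0.13 without mAktDKO mouse 2 and 0.34 with library totals. The 3 with the smallest p were Tnfsf10, the ligand TRAIL, at 0.46 (adjusted p = 0.106), Tnfrsf1a at 0.20 (adjusted p = 0.227) and the kinase Ripk1 at 0.36 (adjusted p = 0.296, all from edgeR). Many of these genes are also expressed by leukocytes. All 5 tested leukocyte markers lay above 0 as well, with a median of 0.51, and their part was not tested.

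The other regulators of the family were mixed. Bcl2l2, an anti-apoptotic relative that encodes Bcl-w, was at 38.5 ± 0.80 CPM across the mAktDKO group and 45.0 ± 5.24 CPM in the flox mice (SD, n = 3), with a log2 fold change of -0.22 (adjusted p = 0.198, edgeR). The Bcl2a1 copies, which share reads with each other, and Bcl2l10 had at most 4 counts in a mouse. Among 8 tested genes related to the BH3-only group, the autophagy gene Becn1 was at -0.28 (adjusted p = 0.0922), the mitophagy receptor Bnip3l at 0.31 (adjusted p = 0.0998) and Bcl2l13, another mitophagy receptor, at -0.22 (adjusted p = 0.154, all from edgeR). Pmaip1, also called Noxa, had 4 to 7 counts in the mAktDKO mice and 1 or 2 counts in the flox mice and did not pass the filter. Hrk, Bik, Bcl2l14 and Bcl2l15 did not pass it either, and their groups overlapped.

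Enzymes that set the lifetime of the Mcl1 protein lay below 0 in 4 of 4 cases, with a median of -0.11 that turned to 0.024 with library totals. Usp13, which removes ubiquitin, was at -0.32 (adjusted p = 0.165), Fbxw7, which helps to add it, at -0.17 (adjusted p = 0.295) and the ligase Huwe1 at -0.059 (adjusted p = 0.674, all from edgeR). The 7 adaptor genes (the Ywha genes and Sfn, which encode 14-3-3 proteins), whose products hold phosphorylated Bad, were above 0 in 4 cases and below in 3, with Ywhaz at 0.22 (adjusted p = 0.195), Ywhag at -0.18 (adjusted p = 0.247) and Ywhaq at 0.25 (adjusted p = 0.331, all from edgeR). Inhibitors of apoptosis and the mitochondrial proteins that bind them were above 0 in 3 and below in 4 of 7 cases. Xiap, which blocks caspases, was at 0.29 (adjusted p = 0.119), its mitochondrial antagonist Htra2 at -0.36 (adjusted p = 0.142) and Sept4, whose product ARTS also opposes Xiap, at 0.30 (adjusted p = 0.200, all from edgeR).

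**Figure D5:**
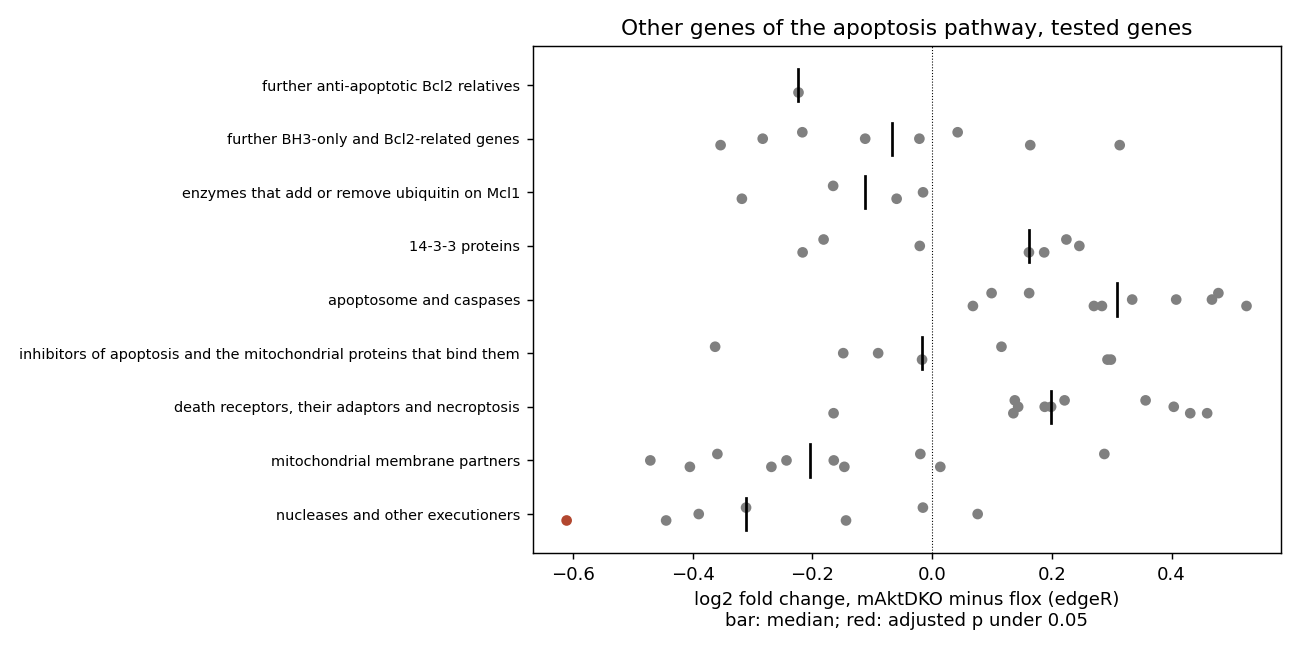
Log2 fold change (mAktDKO minus flox, x axis) of the 65 tested genes in 9 lists of the apoptosis pathway, 1 point a gene, with the median of each list as a bar. Endog, at -0.61, is the only point in red (adjusted p under 0.05, edgeR), and the medians run from -0.31 for nucleases to 0.31 for the apoptosome and caspases.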

How the data were processed

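RNA of EDL from 3 mAktDKO and 3 flox mice was measured. The authors depleted ribosomal RNA, sequenced stranded libraries, mapped the reads to mm10 with STAR (2.6.1b in the submitters' processing notes) and ran RSEM 1.3.1 for genes. Values are expected counts as the authors deposited them, unscaled, and 3.36% to 4.09% of them in a mouse were not whole numbers (exact comparison, as the file writes them). Control columns numbered 2 to 4 stand for the group.

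After rounding, genes passing filterByExpr (minimum count 10) entered edgeR 4.0.16 in R 4.3.3, with TMM factors and its quasi-likelihood test, with Benjamini-Hochberg adjustment over 12892 genes and a threshold of 0.01. Standard errors are the log2 fold change divided by the square root of F, and 95% intervals follow from them. DESeq2 1.42.0 was an alternative, as were other scalings, filters and leaving out each mouse. The steps were tested on simulated data. Coordinates and lengths are from GENCODE M21. Members and lists were chosen with earlier results of these data known. Named are all members and, in each list, the 3 tested genes with the smallest p and any with an adjusted p under 0.05. Some list genes that did not pass the filter are named as well. Markers of satellite, Schwann, mural and red blood cells were read too, and their sums overlapped between the groups. A planned search of protein sequences was not run.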

Additional observations from a re-analysis of the deposited data

How the results depend on the processing

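No paired analysis was possible because the sources used here describe no pairing of the mice, only a running number within each group. These numbers could not serve as a replicate block either. The table numbers its flox columns 2 to 4, and the labels number those mice 1 to 3. The replicate block was not fitted. The number of members called was 0 in each of the 14 alternatives, and the smallest adjusted p of any member across them was 0.0717 (Bcl2l11, library totals). The number of all genes called was 338 with DESeq2, 32 with no filter, 152 at an adjusted p under 0.05 and 0 to 8 without one mouse (0 without any one mAktDKO mouse, 8 without flox mouse 2), and 3 otherwise. For the pathway lists it was 3 with DESeq2, 1 at an adjusted p under 0.05 and 0 to 0 without one mouse. Members near 0 turned sign. With library totals, which moved the median of all genes from 0.017 to 0.16, Bcl2 was at 0.019, Bad at 0.038, Mcl1 at 0.16, Bak1 at 0.20, Bax at -0.12, Bok at -0.00047, Bcl2l1 at -0.27, Bbc3 at 0.46 and Bcl2l11 at 0.49. Without one mouse, Bak1 ranged from -0.011 (without mAktDKO mouse 2) to 0.10, Mcl1 from -0.026 (without mAktDKO mouse 3; -0.016 without flox mouse 2) to 0.063, and Bok from -0.55 to 0.14 (without mAktDKO mouse 3; 0.097 without flox mouse 3). Bcl2 ranged from -0.23 (without mAktDKO mouse 2, and also without flox mouse 2) to -0.0085 (without flox mouse 4). Bad was at -0.034 without flox mouse 3 and Bbc3 at 0.20 without flox mouse 2. The cause was not tested. Bcl2l1, Bax, Bbc3 and Bcl2l11 kept their direction in all alternatives. Groups that did not overlap were Bcl2l11 under each scaling, Bax under all but library totals, Bbc3 with TMM and library totals, and Mcl1 and Bid with library totals only. The 4 members with library totals were all higher in the mAktDKO mice, where 26.5% of all tested genes were higher without overlap, against 14.6% with TMM. The list of inhibitors of apoptosis, at a median of -0.017, lay above 0 with DESeq2 (0.041), no filter (0.043), library totals (0.12) and 4 of the 6 fits without one mouse. Bid, Bok and Bbc3 had at most 41 counts in a mouse, and Bok also varied widely between mice. For these genes only large changes could have been seen.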

Other observations

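Among markers of other cell types, the beta-globin gene Hbb-bs was at 0 counts in all 3 flox mice and at 370, 154 and 146 counts in the mAktDKO mice (adjusted p = 0.0180, edgeR). Its values are uncertain because a near-identical copy, Hbb-bt, can share its reads, and Hbb-bt was at 23.1, 16.2 and 9.74 CPM across the mAktDKO group and 13.2, 13.1 and 8.997 CPM among flox mice. Why Hbb-bs differed was not tested. The sum of the 4 red blood cell markers, most of which came from Hba-a1, overlapped (47.2 to 186 CPM across the mAktDKO group and 67.1 to 134 CPM in the flox mice). Satellite cell markers summed to 27.6 to 33.1 and 29.2 to 34.2 CPM, Schwann cell markers to 312 to 399 and 249.45 to 322 CPM, and mural cell markers to 532 to 611 and 465 to 544 CPM.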
